A study of Mus musculus with 12 samples.

Results

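The p53 targets and apoptosis genes examined here were 35 of the 22911 genes listed in tables of RNA-Seq from mouse epiblast-like cells (EpiLCs). The members were chosen by name, as the genes encoding p53, its negative regulator Mdm2, inhibitors of cyclin-dependent kinases (Cdks), p53 targets and proteins of the mitochondrial route to cell death, and all 35 were listed. EpiLCs are cells that pluripotent embryonic stem cells (ESCs) become when they leave the naive state, and they resemble the epiblast of the early post-implantation embryo. The 12 samples fell into 4 groups of 3: female controls (fWT, *Kdm5c* fl/fl), female knockouts (fKO, *Kdm5c* Δ/Δ), male controls (mWT, *Kdm5c* flY) and male knockouts (mKO, *Kdm5c* ΔY). The labels write these genotypes as Smcx wild type and Smcx knockout, *Smcx* being another name of *Kdm5c*, and give C57BL/6J as the strain of every sample. The Δ allele lacks exons encoding the catalytic domain of KDM5C, an X-linked histone demethylase, and every control carries the floxed allele, so no group is free of the engineered locus. For each genotype 3 ESC lines were grown for 4 passages in 2i medium in gelatin-coated dishes. They were then held for 48 h with 10 ng/ml FGF2 and 20 ng/ml Activin A. The ESCs had earlier been derived and passaged on mouse fibroblast feeder cells. The comparison asked whether RNA levels of these genes differed between knockouts and controls, in each sex and between the sexes. Controls and knockouts come from different ESC lines, so the genotype and the line cannot be told apart.

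The transcription factor p53 is held low in unstressed cells by Mdm2, which it itself induces, and when stabilised it raises genes that stop the cell cycle, repair DNA or start cell death. Its best known arrest target, *Cdkn1a*, encodes p21, a Cdk inhibitor. Death signals converge on the Bcl2 family, in which guardians (*Bcl2*, *Bcl2l1*, *Mcl1*) restrain the pore formers Bax and Bak1, and BH3-only proteins such as Bbc3, Pmaip1 and Bik oppose the guardians. An open pore releases cytochrome c, which assembles Apaf1 and Casp9 into the apoptosome, and Xiap inhibits the caspases that follow. Pluripotent cells are known for a high readiness to die after damage, and much of the p53 pathway acts on protein stability, which RNA-Seq does not measure.

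Values are normalized counts, that is reads of a gene in 1 library divided by the size factor of that library. The tables hold means per genotype, from which the reads of single libraries were worked out. These libraries carry no sample names, and the letters A, B and C stand for their order by size factor in a genotype, A having the largest. Between 5516216 and 11092731 reads were recovered per library, and a member had between 4 and 8367 reads in a library, with at least 100 reads in every library for 29 members. *Kdm5c* itself, the targeted gene, fell in females from 2360 ± 60.7 to 1453 ± 49.7 normalized counts (SD, n = 3) and was at 2226 ± 133 and 1938 ± 39.7 in male controls and knockouts (limma adjusted p = 4.7e-09 and 0.27). The paper reports that the Δ allele gave no reads on its missing exons, which a count over the whole gene does not show. Male control library B and male knockout library A stood apart from the other libraries of their groups, with median absolute log2 differences of 0.24 and 0.27 from them, against 0.08 to 0.09 for every female library. Counts of calls in males are therefore given with and without these libraries, as are the values of members whose call changed. Without them *Kdm5c* fell by 0.22 in males (adjusted p = 0.021). Male control libraries A and C also held 8161 and 6374 reads on 5025 genes that were nearly silent in females, against 847 to 1270 in the other male libraries, which touches members at a few reads, *Fas* above all.

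Sequences near the start sites are shown first because most members are named for their regulation by p53. In mm9, pairs of p53 half-sites (each of 10 bases, both strands, at most 10 bases apart, at most 1 mismatch over the pair outside the outer C and G of each core CNNG) were searched within 3000 bases of the start site. Such a pair was found for 12 of the 35 members and for 14.5% of 19371 start sites. A pair with no mismatch was found for *Trp53inp1* and *Zmat3*, and for 1.49% of all start sites. A match describes letters and not binding, and a gene with no match here may carry a site in other letters or farther away. The pairs of other members, among them *Cdkn2b*, *Bcl2* and *Mcl1*, are not printed. Those of 8 p53 targets are printed 5′ to 3′ with the 4 core bases of each half-site in capitals.
Cdkn1a: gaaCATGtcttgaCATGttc
Ccng1: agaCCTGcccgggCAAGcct
Trp53inp1: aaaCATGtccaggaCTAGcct
Zmat3: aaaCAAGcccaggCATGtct
Gadd45a: aagCAAGctttgcccggCATGtct
Plk2: gggCTAGcccggacgCTTGtcc
Bax: gagCTTGtttacgtggtgggCCAGccc
Ei24: aaaCAAGcctcgtaaagCAAGtca
The pair near *Cdkn1a* lay at chr17:29227873-29227892 on the plus strand, 2835 bases before the start site used, with 1 mismatch. The pair near *Zmat3* lay at chr3:32263253-32263272 on the minus strand, 1338 bases after the start site, and that near *Trp53inp1* at chr4:11082259-11082279 on the plus strand, 1309 bases before it. The pair near *Gadd45a* lay at chr6:66987854-66987877 on the minus strand, 465 bases before its start site. The half-sites directly abut near *Cdkn1a*, *Ccng1* and *Zmat3*, and are parted by 7 bases near *Bax*.

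The 250 bases before the start site are shown for 2 members that changed in the same direction in both sexes, *Gadd45a* and *Eda2r*, and for *Cdkn2b*, which changed in opposite directions. RefSeq promoters (GRCm38.p6) matched 29 of the 35 members, with no entry for *Perp*, *Trp53inp1*, *Zmat3*, *Rrm2b*, *Pmaip1* and *Bik*. CpG dinucleotides are in capitals.
Gadd45a: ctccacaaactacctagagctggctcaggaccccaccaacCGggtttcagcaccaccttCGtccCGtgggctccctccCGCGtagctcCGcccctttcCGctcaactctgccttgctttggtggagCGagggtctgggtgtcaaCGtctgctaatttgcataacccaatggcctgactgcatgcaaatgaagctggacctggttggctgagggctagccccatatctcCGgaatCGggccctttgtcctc
Eda2r: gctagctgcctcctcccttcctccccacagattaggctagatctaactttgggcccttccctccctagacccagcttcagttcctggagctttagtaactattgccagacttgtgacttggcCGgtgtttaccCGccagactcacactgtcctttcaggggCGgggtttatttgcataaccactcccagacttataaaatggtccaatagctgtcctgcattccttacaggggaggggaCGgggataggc
Cdkn2b: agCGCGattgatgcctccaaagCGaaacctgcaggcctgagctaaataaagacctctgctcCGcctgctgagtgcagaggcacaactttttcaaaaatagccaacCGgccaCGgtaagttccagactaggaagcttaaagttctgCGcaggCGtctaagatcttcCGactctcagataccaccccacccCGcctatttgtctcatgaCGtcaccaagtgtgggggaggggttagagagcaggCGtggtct
These windows lie at chr6:67037408-67037657, chrX:97377210-97377459 and chr4:89311033-89311282, all on the minus strand, and hold 11, 4 and 12 CpG dinucleotides. The members' median was 15 CpG dinucleotides per window, and that over 16765 promoters was 10. The motif GGGCGG, in either strand, was in 20 of the 29 windows of members and in 43.4% of all windows, the motif TATAAA in 2 and in 12%, and the motif CACGTG in 2 and in 6.85%. *Eda2r* was one of the members with TATAAA.

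All members had reads in every library, at widely different levels. Per kilobase of exon, the highest mean level in female controls was that of *Mcl1*, whose protein is short-lived, at 1711 normalized counts per kb, followed by *Bax* at 1498 and by *Ccng1*, a p53 target encoding cyclin G1, at 929. The lowest were *Fas*, which encodes a death receptor, at 3.19, the initiator caspase gene *Casp8* at 11.7 and *Bcl2* at 20.9. The median member was at 206 normalized counts per kb. *Mcl1*, *Bax* and *Ccng1* were also the 3 highest in male controls, at 1506, 1364 and 1213, and *Fas*, *Bcl2* and *Bik* the lowest there, at 5.73, 9.17 and 10.3. The guardian *Bcl2l1* lay between its relatives at 101 in female and 82.4 in male controls. *Gadd45a* moved most in rank, from place 20 among the 35 in female controls to place 11 in knockouts, and from place 21 to place 8 in males. Exon lengths are unions over Gencode vM1 transcripts, which may not be the annotation the authors counted on.

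**Figure D1:**
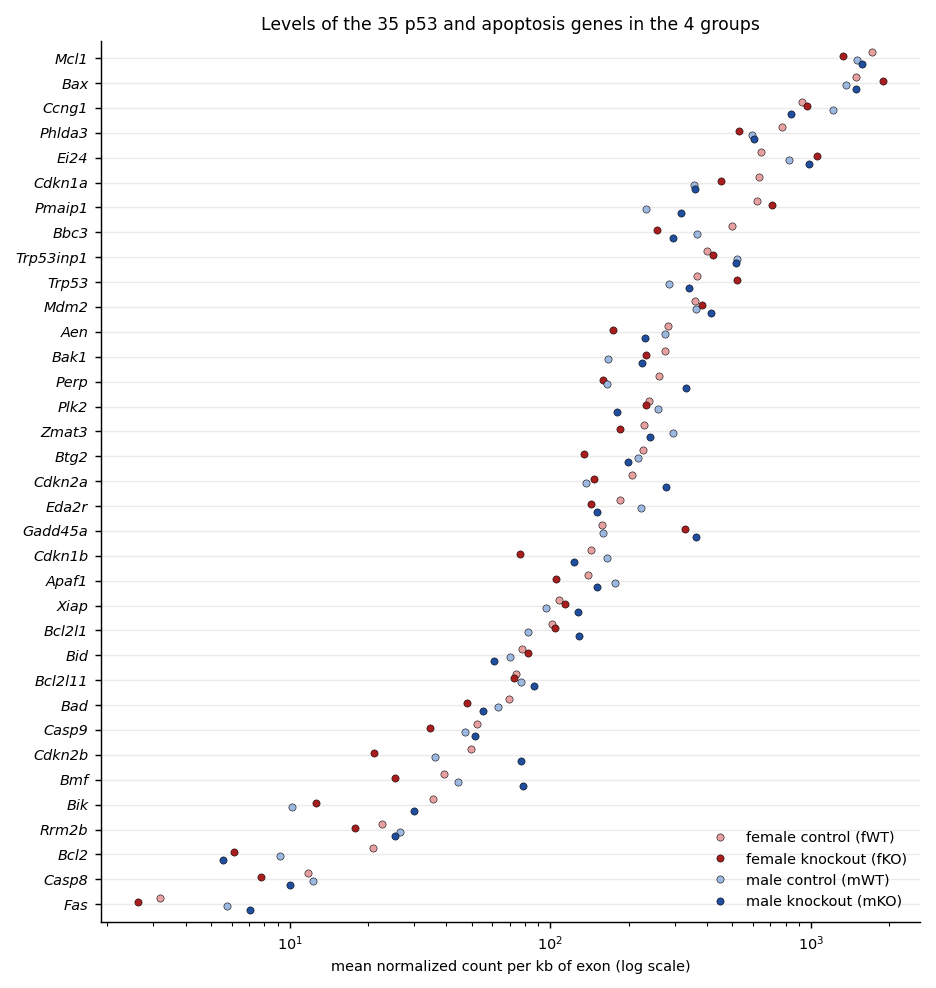
Mean normalized count per kb of exon (log scale) of each member in the 4 groups, ordered by the level in female controls. *Mcl1* stands highest in female controls at 1711 and *Fas* lowest at 3.19, and the points of *Gadd45a* separate by genotype in both sexes.

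In females, more members were lower in the knockout than higher. Of 35 members, 5 rose (14.3%), 20 fell (57.1%) and 10 did not pass an adjusted p of 0.05 (limma on log2 of the normalized count + 1). Among all 19583 genes tested in females, 25.4% rose and 24.6% fell, and among the 13915 genes with a mean of at least 10 these shares were 32.3% and 31.3%, so a call in females was by itself common. The members' median log2 fold change was -0.36, against 0.00 over all genes tested. The 3 knockout libraries lay above all control libraries for 6 members and below them for 20, against 27.6% and 27.2% of all genes tested. The members that rose were *Trp53*, *Gadd45a*, *Bax*, *Pmaip1* and *Ei24*. All 4 Cdk inhibitors fell, as did 5 of 9 targets of arrest, repair and feedback, 3 of 7 targets of cell death, 2 of 3 guardians, 4 of 6 other Bcl2 family genes and 2 of 4 genes of the caspase group. Of the 25 calls, 22 held in each of the 6 fits without 1 library. *Bak1*, *Rrm2b* and *Pmaip1* lost theirs in some, with adjusted p of up to 0.22, 0.093 and 0.0504.

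In males, 8 of 35 members passed the test. *Cdkn2a*, *Cdkn2b*, *Gadd45a*, *Perp*, *Bcl2l1* and *Bmf* rose (17.1%) and *Ccng1* and *Eda2r* fell (5.71%), against 4.19% and 3.58% of the 21900 genes tested, and 6.32% and 4.68% of the 14304 genes with a mean of at least 10. The members' median log2 fold change was 0.04, against -0.16 over all genes tested and 0.00 over those with a mean of at least 10. Knockout libraries lay above all control libraries for 9 members and below for 6, against 12.6% and 13.9% of all genes tested. Of the 8 calls, those of *Gadd45a* and *Perp* held in each of the 6 fits without 1 library. Without male control library A or C these were the only members called. A comparison chosen after the data were seen left out male control library B and male knockout library A. All 8 calls held in it and 16 more were made. It gave 13 members higher and 11 lower, against 17.7% and 25.3% of genes tested. The fit rests on control libraries A and C and knockout libraries B and C. Chi-square values per gene were 2.32 and 2.73 within these pairs, against 17.1 to 31.6 for pairs with a library left out. Control libraries A and C also held more reads on genes nearly silent in females. With so little spread small p-values come easily, here and wherever values are given without the libraries that stand apart. The same holds for females, where these values were 1.98 to 2.69 for pairs of controls and 3.49 to 4.48 for pairs of knockouts. In that fit the newly called members that rose were *Trp53* (0.35), *Bax* (0.24), *Ei24* (0.43), *Pmaip1* (0.67), *Bak1* (0.61), *Bik* (1.54) and *Xiap* (0.37), in log2 fold changes. Those that fell were *Cdkn1b* (-0.53), *Zmat3* (-0.47), *Aen* (-0.19), *Plk2* (-0.88), *Trp53inp1* (-0.31), *Bbc3* (-0.22), *Bcl2* (-1.69), *Casp8* (-0.85) and *Apaf1* (-0.27), with adjusted p of up to 0.038 over the 16.

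**Figure D2:**
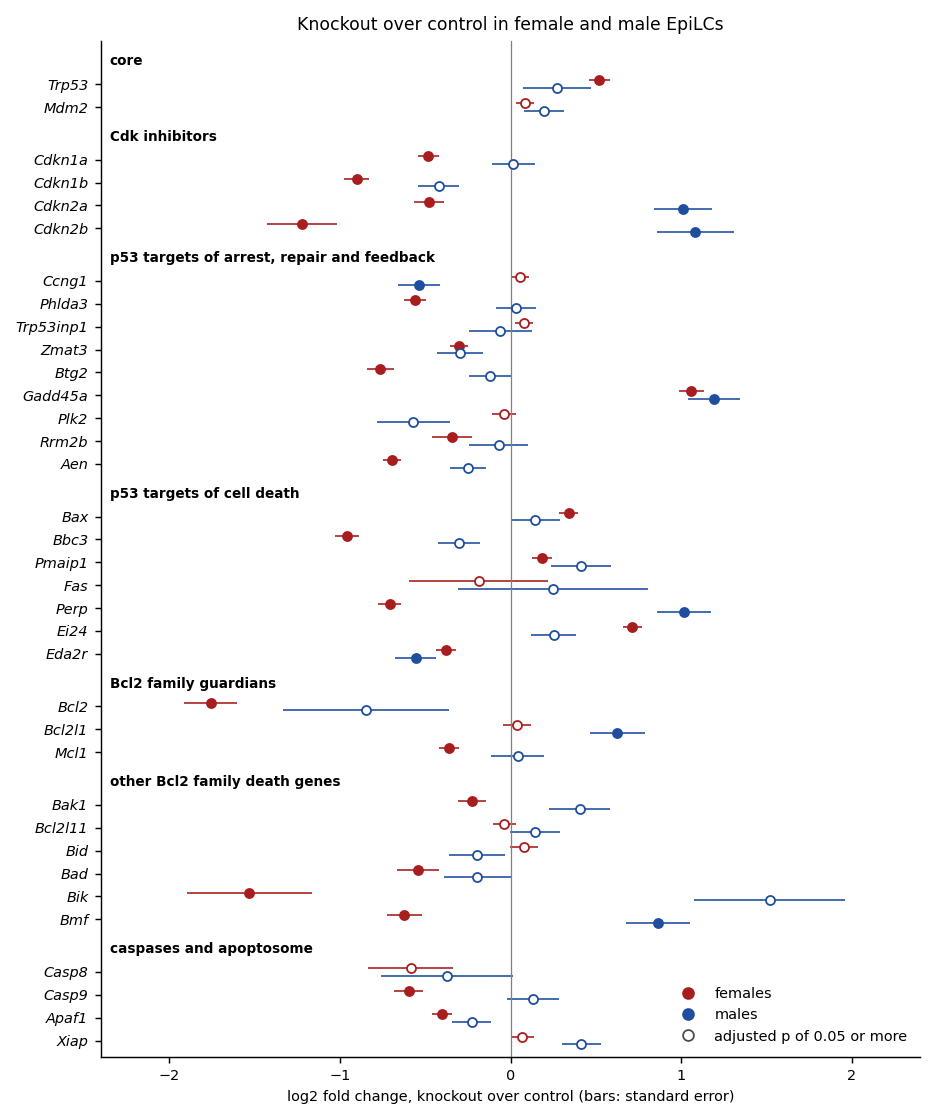
Log2 fold change of knockout over control (x axis; bars are standard errors) for the 35 members by role, in females (red) and males (blue), with filled points where the adjusted p was under 0.05. Red points fall mostly left of 0, and *Cdkn2a*, *Cdkn2b*, *Perp* and *Bmf* have filled points on both sides of it.

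The effect of the knockout differed between the sexes for 16 members when the difference itself was tested (limma interaction, adjusted p under 0.05). It was higher in males for 14 (40.0%) and lower for 2 (5.71%), against 10.6% and 10.7% of 22014 genes tested, or 15.9% and 14.0% of the 14132 with a mean of at least 10. The median difference was 0.35 over the members, -0.20 over all genes tested and -0.01 over those with a mean of at least 10. All 4 Cdk inhibitors were among the 14. Over the 34 members with a mean of at least 10 in both sexes, the log2 fold changes had the same sign for 20 and opposite signs for 14, and 56.7% of 13732 such genes had the same sign. The members called in the same direction in both sexes were 2 and those called in opposite directions 4, against 5.45% and 2.95% of those genes. Each of the latter 4, *Cdkn2a*, *Cdkn2b*, *Perp* and *Bmf*, fell in females and rose in males. Of the 16 differences, 11 held in each of the 12 fits without 1 library. Those of *Bcl2l1*, *Bak1*, *Ei24*, *Cdkn1b* and *Cdkn1a* did not, and without male control library B and male knockout library A all 16 held and 8 more were made, giving 19 members higher and 5 lower against 17.9% and 27.8% of genes tested.

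*Trp53*, which encodes p53, had 1505, 1580 and 1351 normalized counts in the female control libraries A, B and C and 2180, 2001 and 2171 in the knockouts. The male controls had 952, 1525 and 977 and the male knockouts 1667, 1270 and 1184. The female groups did not overlap, and the male groups did, the control library B being high among the controls. The log2 fold change was 0.52 ± 0.06 (SE) in females (adjusted p = 1.7e-06) and 0.27 ± 0.20 in males (adjusted p = 0.41), and the difference between the sexes did not pass the test (adjusted p = 0.48). Without male control library B and male knockout library A, *Trp53* rose in males by 0.35 (adjusted p = 0.0054). *Mdm2*, the ubiquitin ligase that p53 induces and that marks p53 for destruction, was nearly even, at 1829 ± 58.8 and 1934 ± 11.7 in female controls and knockouts and 1833 ± 107 and 2104 ± 224 in male ones. Its log2 fold changes were 0.08 ± 0.05 and 0.20 ± 0.12 (adjusted p = 0.22 and 0.32). Knockout libraries of *Mdm2* nonetheless lay above all control libraries in both sexes, by little. The highest control and lowest knockout library had 1894 and 1927 in females and 1934 and 1948 in males.

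The knockout effect differed between the sexes for all 4 Cdk inhibitors. *Cdkn1a* had 1384, 1382 and 1461 normalized counts in female controls and 1031, 930 and 1067 in female knockouts. Male libraries were lower than every female library, with 838, 725 and 803 in controls and 899, 760 and 735 in knockouts. Thus *Cdkn1a* fell by 0.48 in females on the log2 scale (SE 0.06, adjusted p = 2.9e-06) and its male groups overlapped (0.01 ± 0.13, adjusted p = 0.95). *Cdkn1b*, encoding p27, had 693, 617 and 653 in female controls and 321, 364 and 364 in knockouts, so that the knockout libraries were all lower. Its male values were 798, 669 and 796 against 575, 558 and 548. The male groups did not overlap either, but only the female change passed the test (-0.90 ± 0.07, adjusted p = 9.6e-09, and -0.42 ± 0.12, adjusted p = 0.062). The sexes differed by 0.50 for *Cdkn1a* and 0.48 for *Cdkn1b* (adjusted p = 0.017 and 0.020).

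*Cdkn2a* and *Cdkn2b* are neighbours on chromosome 4 (mm9 chr4:88920377-88940557 and chr4:88952198-88956941, both on the minus strand). *Cdkn2a* encodes p16 and, from another reading frame, p19Arf, which restrains Mdm2, and gene counts do not part the transcripts. It had 237, 248 and 237 normalized counts in female controls and 181, 165 and 172 in female knockouts. The male controls had 146, 180 and 155 and the male knockouts 271, 378 and 326. *Cdkn2b*, encoding p15, was also highest in male knockouts, at lower levels. It had 80.5, 61.5 and 65.6 in female controls and 29.0, 23.6 and 35.4 in knockouts, and 57.8, 44.5 and 48.9 against 117, 116 and 91.0 in males. Male knockout libraries were the highest of all 12 for both genes and female knockout libraries of *Cdkn2b* the lowest, with no overlap between genotypes in either sex. The log2 fold changes of *Cdkn2a* were -0.48 ± 0.09 in females and 1.01 ± 0.17 in males (adjusted p = 0.00015 and 0.0090), and those of *Cdkn2b* were -1.22 ± 0.21 and 1.08 ± 0.23 (adjusted p = 6.8e-05 and 0.022). The differences between the sexes were 1.49 ± 0.18 and 2.30 ± 0.30 (adjusted p = 7.7e-05 and 0.00012). The male call of *Cdkn2a* was lost in 2 of 6 fits without 1 library and that of *Cdkn2b* in 4, with adjusted p of up to 0.067 and 0.11.

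**Figure D3:**
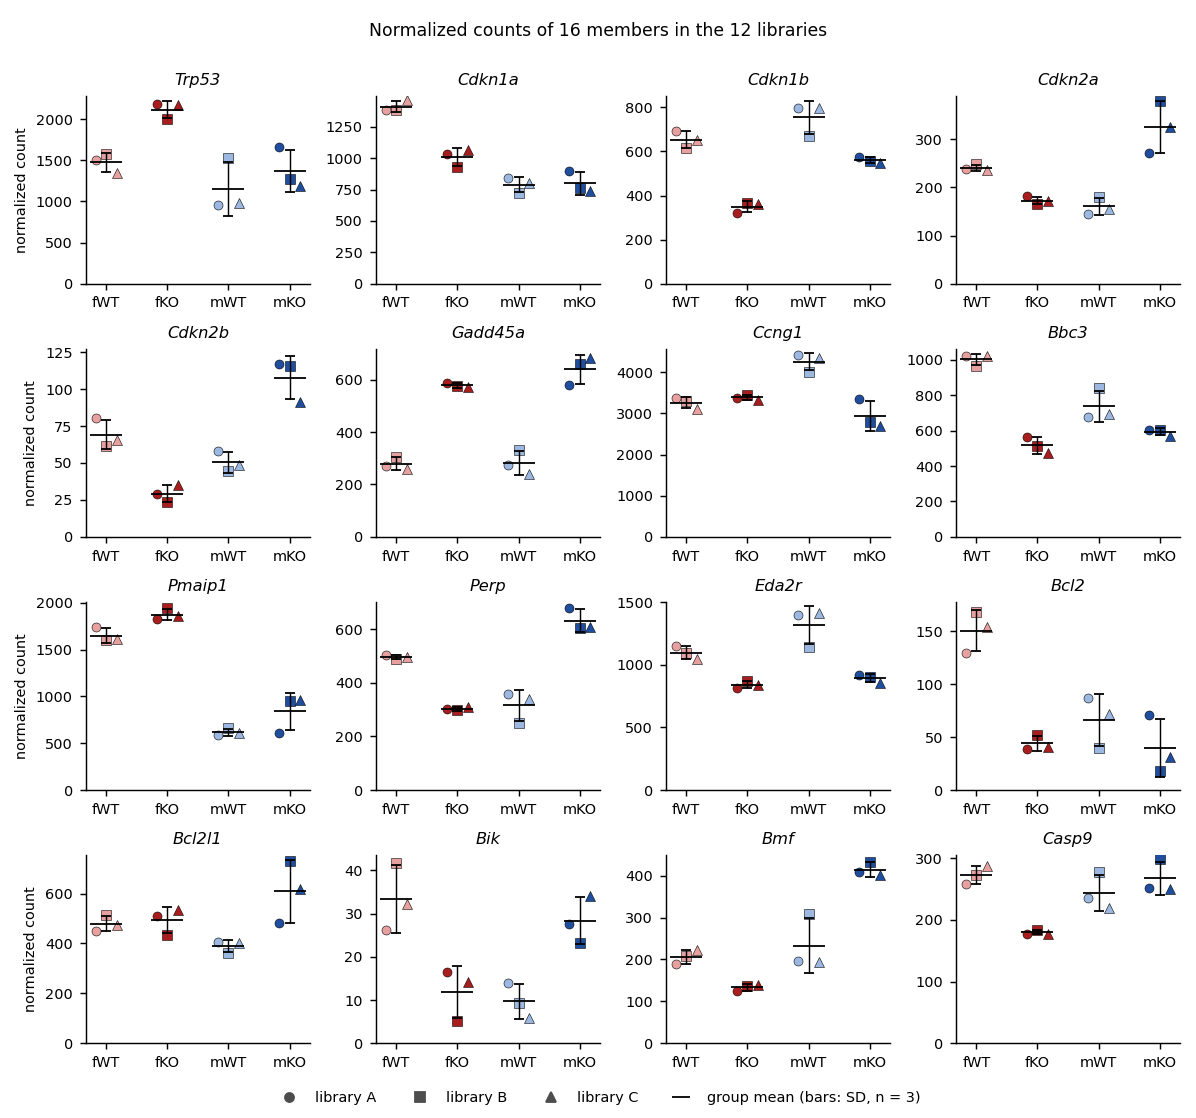
Normalized counts of 16 members in each of the 12 libraries (symbols mark libraries A, B and C), with the group mean and SD (n = 3). *Gadd45a* is higher in knockouts of both sexes, *Cdkn2a*, *Cdkn2b*, *Perp* and *Bmf* are lower in female and higher in male knockouts, and male control library B or male knockout library A lies apart for *Trp53*, *Pmaip1* and *Bmf*.

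Among targets of arrest, repair and feedback, *Gadd45a* was the member that rose in both sexes. It encodes a small stress protein that binds PCNA and Cdk1 complexes. It had 270, 306 and 259 normalized counts in female controls and 589, 577 and 571 in female knockouts. In males it had 273, 333 and 240 in controls and 579, 659 and 684 in knockouts. Every knockout library lay above every control library, and the control groups of both sexes were nearly the same. The log2 fold changes were 1.06 ± 0.07 and 1.19 ± 0.15 (adjusted p = 1.6e-09 and 0.0026), and the difference of 0.13 ± 0.17 between the sexes did not pass the test (adjusted p = 0.60). The exons of *Gadd45a* share 337 bases, 19.1% of their length, with the antisense gene *E230016M11Rik*, and the strand setting of the counting is not given in the sources used here.

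*Ccng1* had 3386, 3289 and 3109 normalized counts in female controls and 3372, 3453 and 3338 in female knockouts, which overlapped. In males it had 4412, 4013 and 4356 in controls and 3352, 2790 and 2682 in knockouts, all lower. It fell by 0.54 in males (SE 0.12, adjusted p = 0.031), with 0.06 ± 0.05 in females, and the sexes differed (-0.60 ± 0.13, adjusted p = 0.0045). The male call was lost in 4 of 6 fits without 1 library. *Phlda3*, whose product blocks the kinase Akt, *Btg2*, an antiproliferative gene, and *Aen*, a nuclease gene, fell in females, with log2 fold changes of -0.56, -0.76 and -0.70 (adjusted p = 9.9e-07, 1.9e-07 and 5.2e-09). *Aen* was the tightest of them, with 1599, 1633 and 1602 normalized counts in female controls and 1009, 1008 and 964 in knockouts. In males the log2 fold changes of *Phlda3*, *Btg2* and *Aen* were 0.03, -0.12 and -0.25 with no call, and for each the difference between the sexes passed the test (adjusted p = 0.0059, 0.0058 and 0.0066).

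*Zmat3*, which encodes an RNA-binding protein, fell in females from 1846 ± 12.7 to 1499 ± 52.0 normalized counts (-0.30 ± 0.05, adjusted p = 0.00011). The male values were as far apart, 2395 ± 170 and 1962 ± 315, but spread more (-0.30 ± 0.14, adjusted p = 0.21). *Rrm2b*, a ribonucleotide reductase subunit used in repair, fell by 0.34 in females (SE 0.12, adjusted p = 0.020) and had -0.07 ± 0.17 in males. *Trp53inp1*, a feedback gene of p53, had log2 fold changes of 0.08 and -0.06, and *Plk2*, a kinase gene, of -0.04 and -0.57, with no call. For both, male knockout library A was above the other male knockout libraries, with 4530 against 2794 and 2706 for *Trp53inp1* and 721 against 395 and 405 for *Plk2*. Without that library and male control library B, *Plk2* fell by 0.88 (adjusted p = 0.00020) and *Trp53inp1* fell by 0.31 (adjusted p = 0.0027).

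Targets of cell death went both ways in females. *Bax* rose from 2041, 1954 and 2021 normalized counts to 2690, 2465 and 2461, a log2 fold change of 0.34 ± 0.05 (adjusted p = 4.6e-05). *Ei24*, which encodes a membrane protein of the endoplasmic reticulum, rose from 1417, 1413 and 1509 to 2429, 2416 and 2267 (0.71 ± 0.06, adjusted p = 5.4e-09). *Pmaip1*, encoding the BH3-only protein Noxa, rose slightly, from 1745, 1599 and 1611 to 1824, 1943 and 1855 (0.18 ± 0.06, adjusted p = 0.011). For these 3 genes no control library reached a knockout library. In males none of the 3 was called, with 0.14 ± 0.14, 0.25 ± 0.13 and 0.41 ± 0.17. Without male control library B and male knockout library A, *Bax* and *Ei24* rose by 0.24 and 0.43 (adjusted p = 0.021 and 0.00086). Male *Pmaip1* had 586, 660 and 612 in controls and 614, 948 and 960 in knockouts, so library A of the knockout lay among the controls, and without the same libraries the gene rose by 0.67 (adjusted p = 0.00039).

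*Bbc3*, encoding Puma, the BH3-only protein most tied to p53-induced death, went the other way in females. It had 1022, 965 and 1018 normalized counts in controls and 566, 513 and 471 in knockouts. Male libraries had 677, 838 and 693 in controls and 605, 604 and 571 in knockouts, also without overlap. It fell by 0.96 in females (SE 0.07, adjusted p = 2.1e-09), the male log2 fold change was -0.30 ± 0.12 (adjusted p = 0.17), and the sexes differed by 0.65 ± 0.14 (adjusted p = 0.0042).

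*Perp* encodes a membrane protein of desmosomes that is induced in p53-dependent death. It had 502, 490 and 496 normalized counts in female controls and 301, 297 and 311 in female knockouts. Male controls had 357, 248 and 341 and male knockouts 679, 603 and 608. The female control libraries thus lay between both male groups. It fell by 0.71 in females (SE 0.07, adjusted p = 7.9e-08) and rose in males by 1.01 (SE 0.16, adjusted p = 0.0067), a difference of 1.72 ± 0.17 between the sexes (adjusted p = 1.4e-05).

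*Eda2r*, an X-linked gene encoding a receptor of the TNF family, fell in both sexes. It had 1148, 1095 and 1044 normalized counts in female controls and 814, 872 and 839 in knockouts, and 1400, 1142 and 1410 against 919, 900 and 855 in males. No genotypes overlapped within a sex. The log2 fold changes were -0.38 ± 0.06 and -0.56 ± 0.12 (adjusted p = 3.0e-05 and 0.026), the male call being lost in 4 of 6 fits without 1 library. *Fas* had between 3.92 and 18.7 normalized counts in a library, and neither sex gave a call, so no change was detectable at this depth.

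In the Bcl2 family the guardians diverged. *Bcl2* had 130, 168 and 153 normalized counts in female controls and 39.2, 52.2 and 40.4 in female knockouts. In males it had 86.7, 39.3 and 71.9 in controls and 70.6, 18.2 and 31.0 in knockouts, where the libraries that stand apart also stood apart for this gene. It fell by 1.76 in females (SE 0.16, adjusted p = 3.2e-08), the largest female change among the members, and the male value was -0.85 ± 0.49 (adjusted p = 0.30), or -1.69 without male control library B and male knockout library A (adjusted p = 0.0049). *Mcl1* fell in females from 5962 ± 170 to 4645 ± 334 (-0.36 ± 0.06, adjusted p = 4.4e-05) and was at 5250 ± 279 and 5471 ± 1159 in males (0.04 ± 0.15). *Bcl2l1*, encoding Bcl-xL, had 408, 361 and 401 in male controls and 480, 732 and 616 in male knockouts and rose there by 0.62 (SE 0.16, adjusted p = 0.047). In females it was even, at 479 ± 31.0 and 492.8 ± 52.1. The male call of *Bcl2l1* was lost in 5 of 6 fits without 1 library.

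*Bik* and *Bmf*, BH3-only genes, had log2 fold changes of opposite sign in females and males. *Bmf* had 188, 209 and 222 normalized counts in female controls and 125, 136 and 139 in knockouts. In males it had 197, 308 and 194 in controls and 409, 434 and 401 in knockouts. It fell by 0.62 in females (SE 0.10, adjusted p = 4.7e-05) and rose in males by 0.86 (SE 0.19, adjusted p = 0.025), the latter call being lost in 4 of 6 fits without 1 library, and the sexes differed by 1.48 ± 0.22 (adjusted p = 0.00033). *Bik* was scarce, with 26.2, 41.7 and 32.2 in female controls and 16.5, 5.05 and 14.1 in knockouts, and 14, 9.30 and 5.75 against 27.6, 23.3 and 34.1 in males. Its groups overlapped in neither sex. It fell by 1.53 in females (SE 0.36, adjusted p = 0.0018), the male value was 1.52 ± 0.44 (adjusted p = 0.068), and the difference of 3.05 ± 0.61 was the largest among the members (adjusted p = 0.0030).

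The remaining Bcl2 family members changed less. *Bad*, a BH3-only gene, fell in females from 139.9 ± 4.38 to 96.2 ± 13 normalized counts (-0.54 ± 0.12, adjusted p = 0.0011), and *Bak1* from 662.7 ± 93.5 to 562.5 ± 27.4 with overlapping groups (-0.23 ± 0.08, adjusted p = 0.030). Neither was called in males (-0.20 ± 0.19 and 0.40 ± 0.18), though *Bak1* rose there by 0.61 without control library B and knockout library A (adjusted p = 0.00090). *Bid* and *Bcl2l11*, encoding the BH3-only proteins Bid and Bim, were called in neither sex, with log2 fold changes between -0.20 and 0.14. Exons of *Bad*, *Bid* and *Bak1* share 25.8%, 17.7% and 14.8% of their length with the antisense genes *Gpr137*, *Bcl2l13* and *Ggnbp1*.

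Of the caspase group, *Casp9* had 259, 273 and 287 normalized counts in female controls and 178, 184 and 178 in knockouts, and *Apaf1* had 1236, 1330 and 1211 against 931, 926 and 997. Both parts of the apoptosome thus fell in females, with log2 fold changes of -0.60 and -0.40 (SE 0.08 and 0.06, adjusted p = 9.4e-06 and 1.6e-05). In males *Casp9* had 0.13 ± 0.15 and *Apaf1* -0.23 ± 0.11, with no call, and the difference between the sexes passed the test for *Casp9* (0.73 ± 0.16, adjusted p = 0.0053). *Casp8*, the initiator of death receptor signalling, had 32.6 ± 4.85 in female controls and 21.5 ± 4.28 in knockouts, which did not overlap (-0.59 ± 0.25, adjusted p = 0.062). *Xiap*, X-linked, was even in females (0.07 ± 0.07) and had 919, 806 and 953 in male controls against 1135, 1236 and 1190 in male knockouts, without overlap (0.41 ± 0.11, adjusted p = 0.058).

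**Figure D4:**
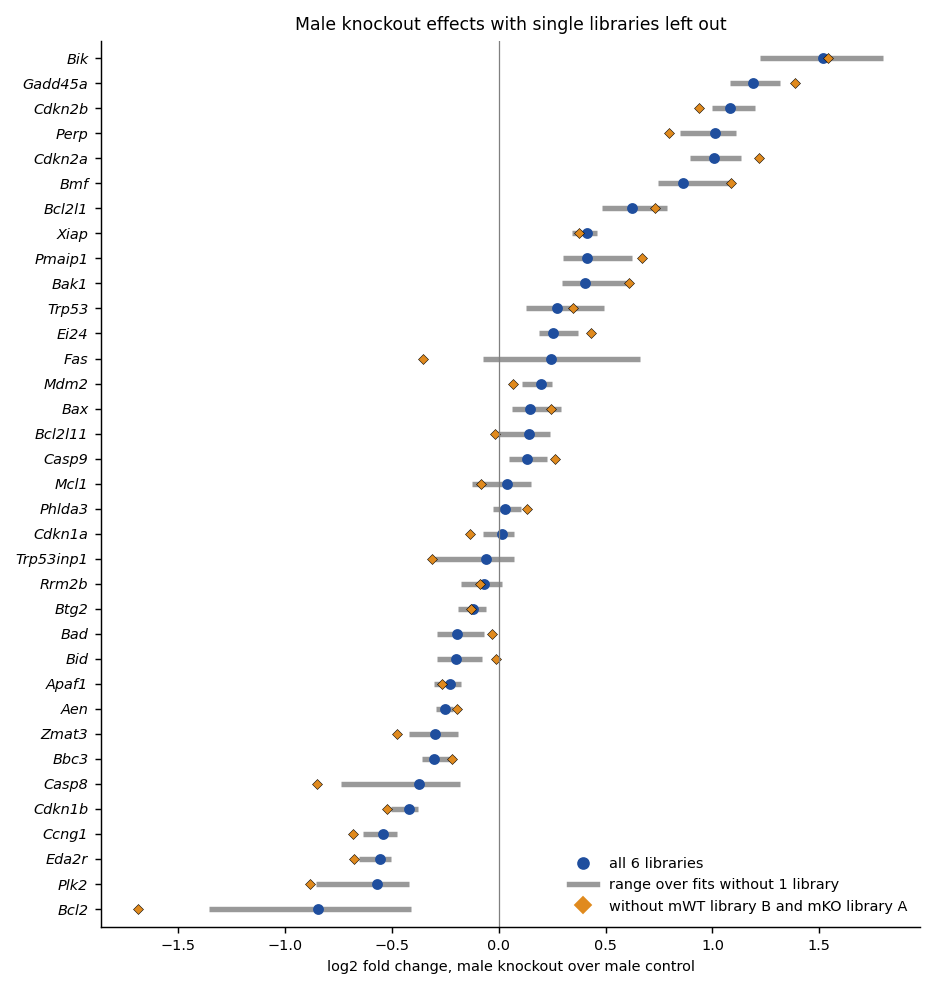
Log2 fold change of each member in males with all 6 libraries (blue), the range over the 6 fits that leave out 1 library (grey) and the value without male control library B and male knockout library A (orange). The 8 called members keep their sign throughout, and *Bcl2*, *Plk2*, *Casp8* and *Trp53inp1* lie lower without the libraries that stand apart.

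Several members already differed between the sexes in controls. Female over male, 10 members were higher (28.6%) and 5 lower (14.3%), against 10.7% and 11.2% of 21868 genes tested, or 16.3% and 14.7% of those with a mean of at least 10. The largest differences were those of *Bik* (1.74 ± 0.39, adjusted p = 0.0086), *Pmaip1* (1.41 ± 0.08, adjusted p = 1.5e-06), *Bcl2* (1.24 ± 0.26, adjusted p = 0.0055) and *Cdkn1a* (0.84 ± 0.09, adjusted p = 6.0e-05). *Ccng1*, *Trp53inp1*, *Zmat3*, *Ei24* and *Apaf1* were lower in female controls, with log2 differences of -0.39 to -0.34. *Trp53* and *Mdm2* were called in neither direction (0.39 ± 0.16 and 0.00 ± 0.08). Of the 15 calls, 9 held in each of the 6 fits without 1 library. That of *Bik* was lost without female control library B (adjusted p = 0.058), that of *Bcl2l1* in 5 fits (up to 0.20), that of *Apaf1* in 4 (up to 0.10), and those of *Ei24*, *Phlda3* and *Ccng1* in 2, 2 and 1 (up to 0.065). These values share the control libraries with the knockout comparisons above. The female and male libraries come from different ESC lines, as do controls and knockouts. Neither the sex nor the genotype can be told apart from the line.

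Further genes of the pathway were taken from lists by function, and their counts stand against 25.4% of all genes tested that rose and 24.6% that fell in females, and 4.19% and 3.58% in males. Of 14 p53 regulators, 5 rose and 3 fell in females and 1 fell in males. *Wrap53*, whose gene neighbours *Trp53*, rose in females by 0.93 (adjusted p = 4.9e-07) and *Ppm1d*, the phosphatase Wip1 that dampens p53 signalling, by 0.75 (adjusted p = 5.8e-08), while *Atr*, a damage kinase gene, fell by 0.42 in males (adjusted p = 0.049). Of further p53 targets, 4 of 16 tested rose and 9 fell in females, and 1 of 17 rose and 5 fell in males. *Sfn*, encoding the arrest protein 14-3-3 sigma, had 2861 ± 78.5 and 1337 ± 116 normalized counts in female controls and knockouts and 569 ± 119 and 1209 ± 118 in male ones, with log2 fold changes of -1.10 and 1.10 (adjusted p = 7.8e-11 and 0.0055). *Dram1*, an autophagy gene, rose in females by 2.96 (adjusted p = 4.5e-09), and *Ercc5*, a repair nuclease gene, fell by 0.87 in males (adjusted p = 0.011). The male calls of *Atr* and *Ercc5* were lost in some fits without 1 library, with limma adjusted p of up to 0.21 and 0.085.

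Of 30 further apoptosis genes, 10 rose and 8 fell in females, against 25.4% and 24.6% of all genes tested. *Casp6*, encoding an executioner caspase, fell by 1.26 in females (adjusted p = 5.0e-07). Of 3 further Cdk inhibitors, 2 fell in females and 1 rose in males. *Cdkn1c*, the imprinted gene of p57, had 595, 539 and 539 in female controls and 331, 345 and 277 in knockouts, and 205, 240 and 250 against 1300, 2508 and 2132 in males. As for *Cdkn2a* and *Cdkn2b*, the gene was lower in female and higher in male knockouts than in their controls, with log2 fold changes of -0.82 ± 0.08 and 3.04 ± 0.22 (adjusted p = 1.9e-07 and 0.00014). *Cdkn2d*, encoding p19Ink4d, fell by 0.74 in females (adjusted p = 6.3e-06).

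Markers of other cell types also differed between knockouts and controls. The summed level of 9 fibroblast markers was 2314 to 2365 normalized counts in female controls and 779 to 835 in female knockouts. In males it was 648 to 883 in controls and 4296 to 4874 in knockouts. The sum was thus lower in female and higher in male knockouts, as were *Cdkn2a*, *Cdkn2b*, *Perp*, *Bmf*, *Cdkn1c* and *Sfn*. Most of the sum came from *Col1a1* and *Col1a2* in every library. In females 4 of the 9 fell and in males 5 rose. *Col1a1*, a collagen gene, fell by 2.19 in females and rose in males by 3.36, and *Postn*, encoding periostin, fell by 3.17 and rose by 3.14 (adjusted p between 4.8e-15 and 0.0058). The other genes of this list called higher in males were *Col1a2*, *Col3a1* and *Pdgfrb*. *Dcn* and *Lum*, also on this list, had at most 8.78 and 3.99 normalized counts in any library. *Thy1* was called in neither sex, with 60.8, 96.1 and 50.3 in male controls and 93.3, 39.5 and 41.4 in male knockouts. The part of the fibroblast markers in the results was not tested. In cultures of mixed cells, fewer cells of a type and less RNA per cell cannot be told apart.

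All 8 endoderm markers rose in females, where their sum was 431 to 480 normalized counts in controls and 3561 to 3712 in knockouts, and 1 of 8 fell in males, with 1769 to 2509 in controls and 536 to 2401 in knockouts. *Gata6* and *Gata4*, endoderm transcription factors, rose in females by 4.09 and 3.63 (adjusted p = 4.8e-15 and 3.5e-15) and *Sox17* fell by 2.14 in males (adjusted p = 0.047). Of 9 naive ESC markers, 8 rose in females and 6 in males, with *Klf4* at 2.99 and *Tbx3* at 2.57 in females and *Klf2* at 2.21 and *Esrrb* at 2.03 in males (adjusted p between 1.5e-13 and 0.015). Their sum was 1143 to 1190 in female controls and 3320 to 3482 in knockouts, and 1505 to 2670 and 4479 to 7620 in males. Among 8 markers of EpiLCs and core pluripotency, 4 rose and 3 fell in females and 3 fell in males, with *Sox2* and *Dnmt3a* higher in female knockouts (2.37 and 1.60) and *Otx2* and *Pou3f1* lower in male ones (-1.72 and -1.53). All 8 had reads in every group, *Pou5f1*, *Otx2* and *Fgf5* included. The male calls of *Sox17*, *Pou3f1*, *Esrrb* and *Klf2* were lost in some fits without 1 library, with limma adjusted p of up to 0.18, 0.14, 0.11 and 0.061. The part of the endoderm, naive and EpiLC markers in the results for the p53 and apoptosis genes was not tested.

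**Figure D5:**
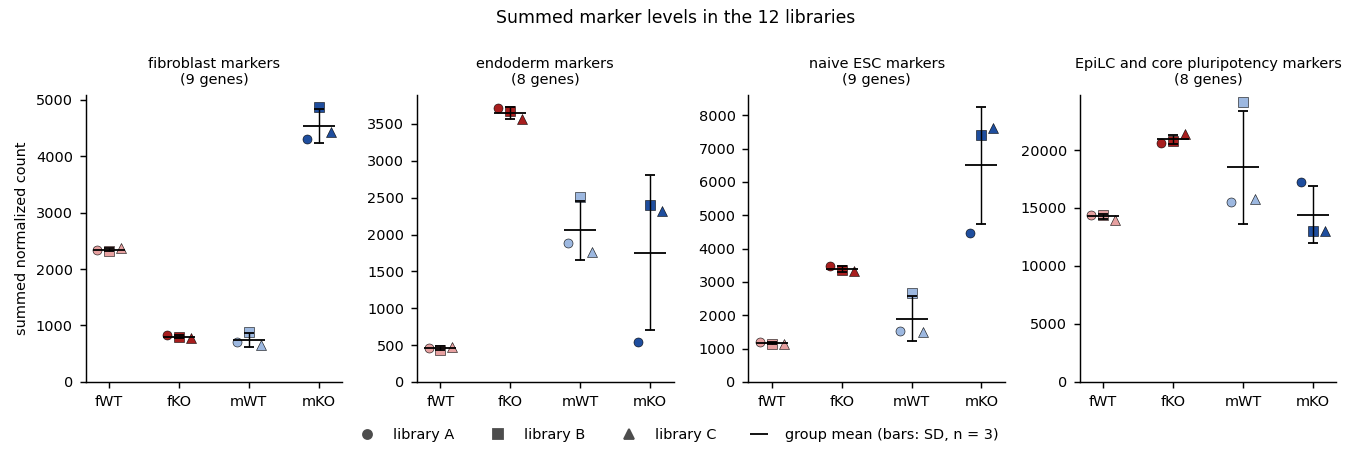
Summed normalized counts of 4 marker lists in each of the 12 libraries, with the group mean and SD (n = 3). Fibroblast markers are low in female knockouts (779 to 835) and high in male knockouts (4296 to 4874), and male knockout library A has the lowest endoderm and naive sums of its group.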

How the data were processed

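The authors mapped reads of rRNA-depleted RNA from 12 samples to mm9, and the submitters' processing notes name TopHat2 2.1.0, Bowtie2 2.2.6.0, DESeq and Cuffdiff. The deposited signal values are mean normalized counts per genotype in 2 tables, 1 per sex. The deposited fold changes and p-values are the authors' comparisons and were not used.

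Since each mean averages 3 whole read numbers after division by their size factors, the reads of single libraries could be solved, up to a mean of 10000, for 22808 genes in all 12 libraries. On simulated data 75967 genes gave 0 wrong solutions. Because the columns were means, limma 3.58.1 (R 4.3.3) with a trend was fitted to log2(normalized count + 1), within each sex, within controls and, for the interaction, over all libraries, with Benjamini-Hochberg adjustment over all genes tested and a threshold of 0.05. On simulated female and male data 99.5% and 93.0% of genes changed by a fold of 2 were found. Of the genes called there, 6.57% and 6.06% were false. The simulated libraries were independent, had the same median spread for all genes and none stood apart. The male shares therefore do not describe the male data, where 2 libraries stood apart. An exact permutation test of 3 against 3 cannot go below p = 0.10. Chi-square values between libraries of a group were 1.98 to 31.6 per gene, above sampling noise. They were 17.1 to 31.6 for pairs with male control library B or male knockout library A, and 1.98 to 4.48 for all other pairs. The p-values measure the spread between the recovered libraries. The study describes separate ESC lines for each genotype, but the recovered libraries cannot be assigned to lines. Whether their spread is that between lines was not tested.

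All 35 members are named. Of other lists, the genes named are, in each sex, the 2 with the largest change among those called with a mean of at least 10. *Dcn*, *Lum*, *Thy1*, *Col1a2*, *Col3a1*, *Pdgfrb*, *Pou5f1* and *Fgf5* were added after their values had been seen. A gene that this rule names among the further apoptosis genes is not reported here. Members, lists and tests were chosen with earlier results of these data known. Alternatives were a pseudocount of 0.1, a minimum mean of 10, voom, median-of-ratios factors and leaving out each library. *Ddit4* was not recovered in female controls.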

Additional observations from a re-analysis of the deposited data

Results flagged for a closer look

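In groups of 3 libraries no test for a single outlying sample was made. The values below are those for which the effect of the knockout differed between the sexes in the interaction term of limma (adjusted p under 0.05), given as the male minus the female log2 fold change. Among the members it was higher in males for *Cdkn1a* (0.50), *Cdkn1b* (0.48), *Cdkn2a* (1.49), *Cdkn2b* (2.30), *Phlda3* (0.59), *Btg2* (0.64), *Aen* (0.44), *Bbc3* (0.65), *Perp* (1.72), *Bcl2l1* (0.59), *Bak1* (0.63), *Bik* (3.05), *Bmf* (1.48) and *Casp9* (0.73). It was lower in males for *Ccng1* (-0.60) and *Ei24* (-0.46). *Bak1* and *Bcl2l1* were nearest the threshold, with adjusted p of 0.04995 and 0.043.

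Among the other genes named, the difference was higher in males for *Kdm5c* (0.50), *Cdkn1c* (3.86), *Cdkn2d* (1.29), *Sfn* (2.2), *Col1a1* (5.55) and *Postn* (6.32). It was lower in males for the p53 regulators *Atr* (-0.32), *Ppm1d* (-0.60) and *Wrap53* (-0.74), for *Dram1* (-3.68), for the endoderm genes *Gata4* (-4.26), *Gata6* (-5.56) and *Sox17* (-5.65), and for *Dnmt3a* (-1.68), *Otx2* (-2.08), *Pou3f1* (-1.36), *Sox2* (-2.01) and *Tbx3* (-0.81).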

How the results depend on the processing

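No paired analysis was possible because the recovered libraries carry no replicate numbers. With another pseudocount, minimum mean, voom or median-of-ratios factors, the counts of members called stayed within 1.5 times those reported: 5 higher and 20 to 21 lower in females, 5 to 8 and 2 to 3 in males, 12 to 15 and 2 for the difference between the sexes, and 9 to 10 and 5 between control sexes. Without 1 library the counts ranged from 4 to 5 higher and 18 to 20 lower in females, from 2 to 10 and 0 to 6 in males, from 11 to 16 and 1 to 4 for the difference, and from 7 to 15 and 3 to 8 between controls. The male counts were highest without mKO library A (10 and 6) and lowest without mWT library A or C (2 and 0). Without mKO library B or C they were 3 and 0. For the difference, 1 member was lower without fWT or fKO library A or B. Between controls, 3 were lower without fWT library A or C and 8 without mWT library B. Without both mWT library B and mKO library A, chosen after seeing the data, 13 members were higher and 11 lower in males, and 5 differences were lower. The causes were not tested.

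Changes of sign occurred for values that were not called. The log2 values without 1 library ranged in females from -0.072 to 0.024 for *Bcl2l11*, -0.024 to 0.13 for *Bcl2l1*, -0.37 to 0.11 for *Fas*, -0.087 to 0.023 for *Plk2* and -0.0019 to 0.10 for *Xiap*. In males they ranged from -0.015 to 0.24 for *Bcl2l11*, -0.075 to 0.0704 for *Cdkn1a*, -0.074 to 0.66 for *Fas*, -0.13 to 0.15 for *Mcl1*, -0.028 to 0.10 for *Phlda3*, -0.18 to 0.017 for *Rrm2b* and -0.30 to 0.071 for *Trp53inp1*. For the difference they ranged from -0.15 to 0.41 for *Casp8* and -0.12 to 0.11 for *Zmat3* (-0.00253 with median-of-ratios factors). Between controls they ranged from -0.0026 to 0.077 for *Aen*, -0.26 to 0.073 for *Bmf*, -0.18 to 0.027 for *Casp8*, -0.12 to 0.12 for *Gadd45a* and -0.047 to 0.038 for *Mdm2*. Without mWT library B and mKO library A, the male values were -0.018 for *Bcl2l11*, -0.13 for *Cdkn1a*, -0.36 for *Fas* and -0.082 for *Mcl1*, and the differences -0.26 for *Casp8*, -0.17 for *Fas*, -0.016 for *Mdm2* and -0.17 for *Zmat3*.

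Depth limits *Fas*, *Bik* and *Casp8*, and also *Bcl2* in male knockouts, where it had 18 reads in 1 library. Recovered reads leave out genes with a mean above 10000.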
